A study of Mus musculus with 6 samples.

Results

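This report describes 10 genes of the NF-kB pathway among the 770 genes of a NanoString panel measured in mouse whole brain. The members are the subunit genes Nfkb1, Nfkb2, Rela and Relb, the inhibitor genes Nfkbia and Nfkbie, and the kinase genes Chuk, Ikbkb, Ikbkg and Ikbke. They were chosen by name, all 10 were measured, and all 10 passed the filter on low values (signal above 20 in at least 3 samples) that kept 712 genes for testing. The study compared 3 wild-type (WT) samples with 3 samples from mice transgenic for SOD1-G85R, a form of superoxide dismutase found in familial amyotrophic lateral sclerosis. The samples are called WT brains and transgenic brains below, whether or not each comes from a separate animal. All mice had a C57BL/6 background, none was given a treatment, and the titles call every sample day 10. The labels give neither the promoter of the transgene nor the event that day 10 is counted from. They also do not state that replicates are separate animals, and p-values therefore reflect the spread of these samples alone, which may be technical.

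The deposited signal is called a normalized count below, and implied total counts were 468719 to 1022647 per sample. The lowest totals, 468719 and 551739, were in SOD1-G85R replicates 3 and 1. At each sample's lowest value, read as a floor, were 29 to 59 genes in WT and 10 to 19 in SOD1-G85R. The part of this difference in the values of genes with low signal was not tested. SOD1-G85R replicate 2 stood apart, with log2 correlations of 0.824 to 0.834 with the other 5 samples, against 0.956 to 0.984 among those 5 (712 genes, which are not independent). Its median signal over the tested genes was 395, against 203 to 255 in the others, while its mean over 13 housekeeping genes was 8.63 on the log2 scale, against 8.56 to 8.59. The members' log2 fold changes and the pathway list medians are therefore given below with and without that sample. Single genes of the pathway lists are given with all samples. The Y-linked gene Uty gave 684, 478 and 466 normalized counts in WT replicates 1 and 2 and SOD1-G85R replicate 2, and 7.85 to 11.2 elsewhere, so that 2 WT samples and 1 transgenic sample carried Y-linked signal. Neuron, astrocyte, oligodendrocyte and endothelial marker genes were above the floor in every sample, as the label whole brain implies. The targeted gene was not analysed here, and the genotype labels rest on the submitters.

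NF-kB is a family of transcription factors that act as dimers. At rest, inhibitors of the IkB family, such as the products of Nfkbia and Nfkbie, hold the dimers in the cytoplasm. In the canonical branch, signals from TNF, IL-1 and Toll-like receptors activate the IkB kinase complex, built from the catalytic subunits encoded by Chuk and Ikbkb and the scaffold NEMO encoded by Ikbkg, which marks the inhibitors for destruction and frees dimers of Rela and the Nfkb1 product. In the non-canonical branch, receptors for lymphotoxin, BAFF and CD40 stabilise the kinase NIK (Map3k14), which acts through the Chuk product on the Nfkb2 precursor and so releases dimers with Relb. Nfkbia, Nfkbie, Nfkb1, Nfkb2 and Relb are textbook targets of the factor itself, which makes the pathway its own feedback loop. In brain it is best known in microglia, astrocytes and endothelium during inflammation.

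No NF-kB gene passed the test between the genotypes, and the highest values of most members came from 1 sample. limma called 0 of the 10 members at an adjusted p of 0.05, with all 6 samples or without SOD1-G85R replicate 2. Over the panel it called 0.00% of the tested genes with all samples (116 of 712, or 16.3%, had an unadjusted p under 0.05, none of them a member) and 1.40% without that sample. In SOD1-G85R replicate 2, 8 of the 10 members lay above all other samples, while 45.9% of the tested genes did so. At least 2-fold above the highest of the other 5 samples lay 5 members, Nfkb2, Nfkbia, Ikbke, Nfkbie and Relb, against 18.1% of the tested genes. Chuk and Ikbkg were the members without that pattern.

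**Figure D1:**
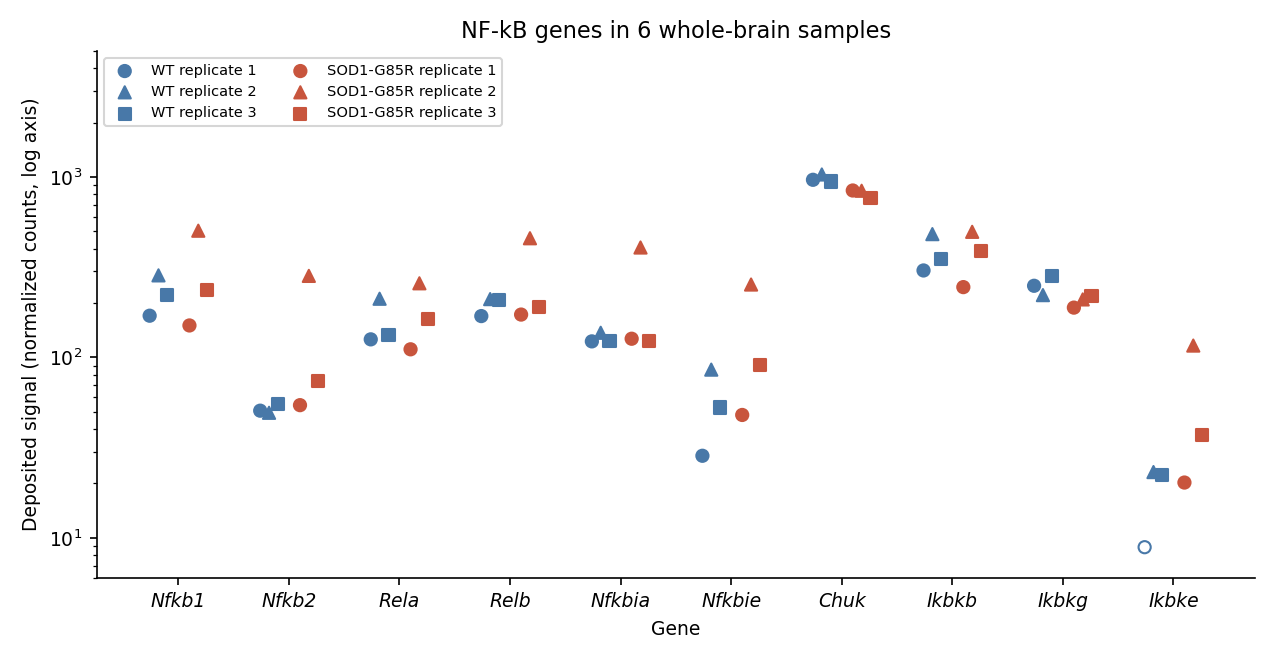
Deposited signal (normalized counts, log axis) of each NF-kB gene in each of the 6 samples, with WT in blue and SOD1-G85R in red, the shape giving the replicate and the open circle a value at the floor. SOD1-G85R replicate 2 (red triangles) is highest for 8 genes, and for Chuk and Ikbkg all 3 SOD1-G85R samples lie below all 3 WT samples.

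Promoter sequence was set beside these values because members of the pathway are known targets of the factor. The table of RefSeq promoter windows (GRCm38.p6, 250 bases before to 50 after each annotated start) listed 7 of the 10 genes, namely Nfkb2 with 3 starts, Ikbkg with 4, and Rela, Nfkbia, Nfkbie, Chuk and Ikbke with 1 each. The general kB consensus, a motif of 10 letters, was searched on both strands. It was found for 3 of the 7 genes (42.9%), Nfkb2, Nfkbia and Nfkbie, against 5.14% of the 27025 genes in the table and 9.69% of the 557 tested panel genes listed there. Those 3 genes were chosen for display because they carry the match, and the stretches below run from 5′ to 3′ on the gene's strand and upstream of its start, with matches in capitals.
Nfkb2, first start, chr19:46304668-46304736, plus strand: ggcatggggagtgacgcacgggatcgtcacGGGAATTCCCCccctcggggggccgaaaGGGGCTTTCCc
Nfkbia, chr12:55492648-55492706, minus strand: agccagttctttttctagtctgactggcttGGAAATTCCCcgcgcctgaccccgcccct
Nfkbie, chr17:45555564-45555633, plus strand: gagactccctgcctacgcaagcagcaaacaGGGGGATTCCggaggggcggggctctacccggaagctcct

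In Nfkb2 the stretch holds overlapping matches on both strands from 39 to 29 bases before the start, which are the capitals GGGAATTCCCC, and GGGGCTTTCC just before the start. Over its 3 windows Nfkb2 had 5 distinct match positions, some of them overlapping. Nfkbia had 1, which reads GGGAATTTCC on the opposite strand, and Nfkbie had 1. A match describes letters and shows no binding. Signal in SOD1-G85R replicate 2 exceeded the mean of the other 5 samples by 2.31 for Nfkb2, 2.15 for Nfkbie and 1.68 for Nfkbia on the log2 scale. Of the 4 genes without a match in these windows, Ikbke exceeded it by 2.45 and Rela by 0.82, while Chuk and Ikbkg lay 0.11 and 0.13 below it. Over the tested panel genes listed, the median of this difference was 0.50 for the 54 with a match and 0.32 for the others.

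**Figure D2:**
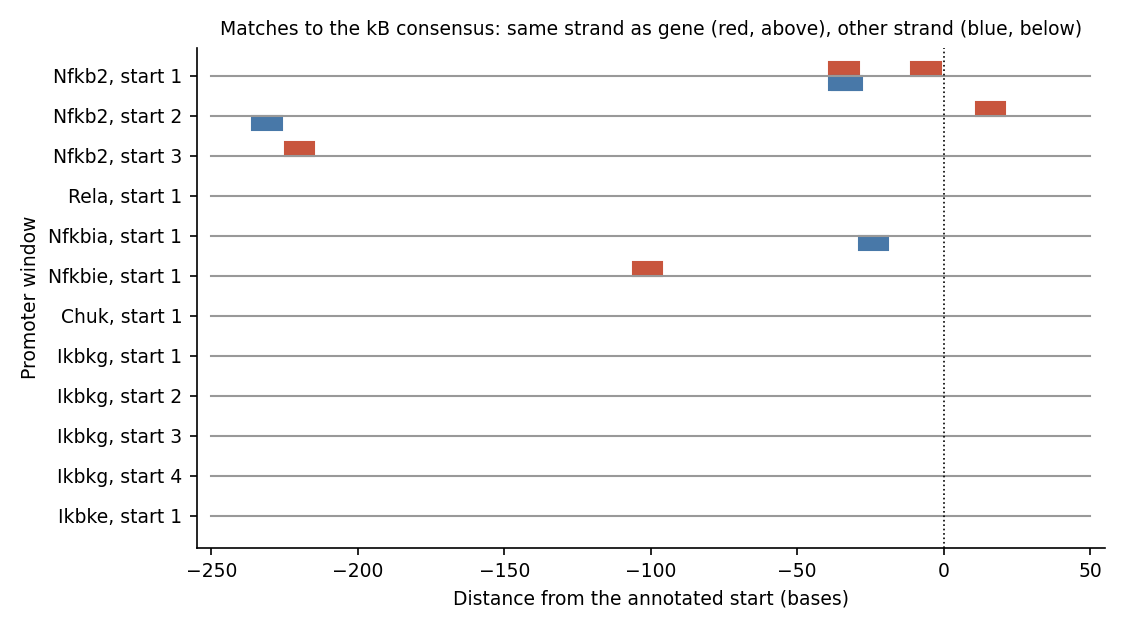
Positions of matches to the kB consensus in the 12 promoter windows of the 7 NF-kB genes listed, as distance in bases from the annotated start (dotted line), with matches on the gene's strand in red above the line and on the other strand in blue below it. Matches fall in the windows of Nfkb2, Nfkbia and Nfkbie.

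Among the subunits of the canonical dimers, Nfkb1, which encodes a DNA-binding subunit made from a longer precursor, was at 170.1, 285 and 221 normalized counts in WT replicates 1, 2 and 3. The transgenic brains, in the same order, had 150.2, 503 and 237. The first of these lay below every WT sample, the second above, and the third between them. Its log2 fold change was 0.25 (SE 0.47, 95% interval -0.89 to 1.39, limma, adjusted p = 0.820), and -0.22 without SOD1-G85R replicate 2 (adjusted p = 0.784). Rela, the subunit with the main transactivation domain, was at 126, 211 and 133 in the WT brains and at 111, 257 and 163 in the transgenic brains. The same sample was lowest and the same sample highest as for Nfkb1, and the groups overlapped. The Rela log2 fold change was 0.13 (SE 0.37, limma, adjusted p = 0.874). Leaving out SOD1-G85R replicate 2 gave -0.18 and centring each sample on its median gave -0.08, so it had no stable direction.

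Of the non-canonical subunits, Nfkb2 encodes a precursor that itself holds back its partners until it is cut. It was at 50.6, 49.3 and 55.1 normalized counts in WT and at 54.3, 283 and 73.9 in SOD1-G85R. The 3 WT samples were within 1.12-fold of each other, SOD1-G85R replicate 1 lay among them, and the other two SOD1-G85R samples lay above. The value in SOD1-G85R replicate 2 rested on 355 implied counts (exact Poisson 95% interval 254 to 314 normalized counts, for counting error only) and was 3.83-fold the highest other sample. SOD1-G85R replicate 3 rested on 52 implied counts, with an interval of 55.2 to 96.9. That interval met those of the WT samples, the highest of which was 42.9 to 69.8. The log2 fold change was 1.00 (SE 0.60, 95% interval -0.46 to 2.47, limma, adjusted p = 0.470), and 0.29 without SOD1-G85R replicate 2 (95% interval -0.26 to 0.84). Relb, whose product pairs with that of Nfkb2, was at 169, 210.2 and 207 in WT and at 173, 457 and 190.3 in SOD1-G85R. Replicates 1 and 3 of SOD1-G85R lay within the WT range, and replicate 2 was 2.17-fold the highest other sample. The log2 fold change of Relb was 0.34 (SE 0.40, limma, adjusted p = 0.692), and -0.10 without SOD1-G85R replicate 2.

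Nfkbia, the gene of IkB alpha and the fastest known feedback inhibitor of the pathway, gave the most even values outside SOD1-G85R replicate 2 among the members. It was at 123, 137 and 123 normalized counts in the WT brains and at 127 and 124 in transgenic replicates 1 and 3, a 1.11-fold range over 5 samples. In SOD1-G85R replicate 2 it was at 406 (510 implied counts, 95% counting interval 372 to 443), which is 2.97-fold the highest other sample. The log2 fold change was 0.54 (SE 0.48, limma, adjusted p = 0.616) and became -0.02 without that sample (95% interval -0.54 to 0.49). Nfkbie, the gene of IkB epsilon, was at 28.5, 85.5 and 52.7 in WT and at 47.9, 253 and 90.9 in SOD1-G85R. Its WT samples spanned 3.00-fold, which is wider than counting error, since the intervals of WT replicate 1 (19.9 to 39.4) and WT replicate 2 (68.3 to 106) do not meet. SOD1-G85R replicate 1 lay within the WT range, replicate 3 just above it, and replicate 2 at 2.79-fold the highest other sample. The Nfkbie log2 fold change was 1.02 (SE 0.68, 95% interval -0.63 to 2.67, limma, adjusted p = 0.518), and 0.38 without SOD1-G85R replicate 2 (adjusted p = 0.736).

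In the IkB kinase complex, Chuk and Ikbkg were lower in all 3 transgenic brains than in any WT brain. Chuk, the gene of IKK alpha, was at 963.5, 1031 and 942 normalized counts in the WT brains and at 841, 838 and 761 in the transgenic brains. All 3 SOD1-G85R samples lay below all 3 WT samples, although the 95% counting intervals of the lowest WT sample (889 to 997) and the highest SOD1-G85R sample (783 to 901) overlapped. WT brains averaged 979 ± 46.3 and transgenic brains 813 ± 44.9 (SD, n = 3 each). The difference on the log2 scale was -0.27 (SE 0.17, 95% interval -0.68 to 0.15, limma, adjusted p = 0.493), and -0.29 without SOD1-G85R replicate 2. Ikbkg, the X-linked gene of the scaffold NEMO, was at 249, 221 and 281 in the WT brains and at 189, 209 and 219 in the transgenic brains. The groups again did not overlap, while those counting intervals did (193 to 253 and 186 to 256). The means of Ikbkg were 251 ± 30.02 and 206 ± 15.5 (SD, n = 3 each). Its log2 fold change was -0.28 (SE 0.19, 95% interval -0.74 to 0.18, limma, adjusted p = 0.518), -0.29 without SOD1-G85R replicate 2, and -0.32 with a term for Uty signal. Over the panel, groups did not overlap in the lower direction in 9.97% of the tested genes and in the higher direction in 17.0%, while 2 members did so lower and 0 higher. The summed signal of 8 oligodendrocyte markers also separated the groups, at 26870, 36130 and 34620 in SOD1-G85R replicates 1, 2 and 3 and at 51620 to 68470 in WT, with 6 of the 8 lower without overlap. Their part in the Chuk and Ikbkg values was not tested. Neither gene passed the test, and with quantile normalization the groups of both overlapped.

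Ikbkb, the gene of IKK beta, the kinase that acts on the IkB proteins in the canonical branch, was at 303, 482 and 352 normalized counts in the WT brains and at 245, 496 and 388 in the transgenic brains. Here SOD1-G85R replicate 2 was only 1.03-fold the highest other sample, WT replicate 2. The log2 fold change was -0.04 (SE 0.33, 95% interval -0.84 to 0.76, limma, adjusted p = 0.958), so differences of up to about that interval were not resolved in either direction. Without SOD1-G85R replicate 2 the Ikbkb value was -0.27. Ikbke encodes an IKK-related kinase that, beside TBK1, acts in interferon induction. It was at the floor of 8.87 in WT replicate 1, which gives only an upper limit, and at 23.1 and 22.4 in WT replicates 2 and 3. In SOD1-G85R it was at 20.2, 116 and 36.9, so that replicate 1 lay within the WT range and the other two above it. The value in replicate 2 was 3.15-fold the highest other sample and rested on 146 implied counts, while the 4 remaining values above the floor rested on 19 to 28. The Ikbke log2 fold change was 1.36 (SE 0.69, 95% interval -0.31 to 3.04, limma, adjusted p = 0.407), and 0.68 without SOD1-G85R replicate 2 (adjusted p = 0.481). Quantile normalization gave 0.31 and a pseudocount of 10 gave 1.05.

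**Figure D3:**
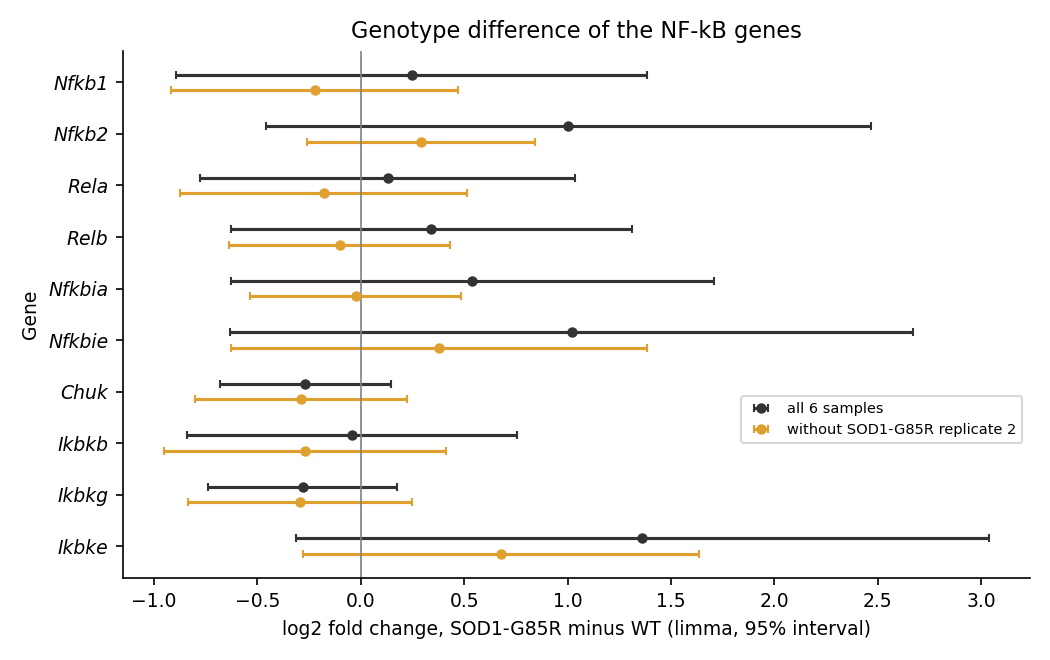
log2 fold change (SOD1-G85R minus WT) of each NF-kB gene with limma's 95% interval, from all 6 samples in black and without SOD1-G85R replicate 2 in orange. Every interval includes 0, and leaving out that sample turned Nfkb1, Rela, Relb and Nfkbia from values above 0 to values below 0.

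As a group the members had a median log2 fold change of 0.29, with 7 of 10 above 0, beside a median of 0.15 and 62.6% above 0 over all tested genes. Relative to the panel median the members stood at 0.15. Without SOD1-G85R replicate 2 their median was -0.14, with 3 of 10 above 0, beside 0.01 and 50.7% over the panel. The median of the members against the WT mean was 1.21 on the log2 scale in SOD1-G85R replicate 2. It was -0.20 and 0.08 in transgenic replicates 1 and 3, and between -0.24 and 0.24 in the WT samples, so both lay within the WT range. Relative to the panel median, SOD1-G85R replicate 2 exceeded the other 5 samples by 0.93 for the median member, by 2.11 for Ikbke and by 1.97 for Nfkb2. Chuk and Ikbkg lay 0.45 and 0.47 below the panel median by the same measure.

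**Figure D4:**
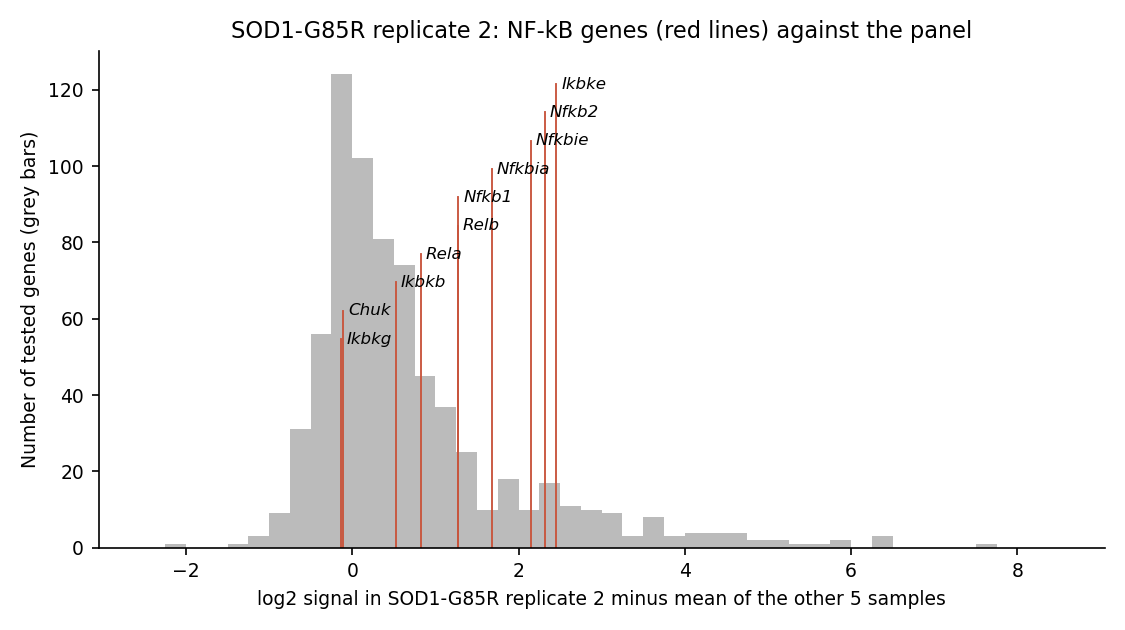
Distribution over 712 tested genes (grey bars) of the log2 signal in SOD1-G85R replicate 2 minus the mean of the other 5 samples, with the 10 NF-kB genes as red lines. Ikbke (2.45), Nfkb2 (2.31) and Nfkbie (2.15) lie in the upper tail, and Chuk (-0.11) and Ikbkg (-0.13) lie just below 0.

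The members also varied within the remaining 5 samples. WT replicate 2 was the highest of these 5 for 6 of the 10 members, Nfkb1, Rela, Relb, Nfkbia, Chuk and Ikbkb, against 23.5% of the tested genes. SOD1-G85R replicate 3 was highest for Nfkb2, Nfkbie and Ikbke, against 32.6% of the tested genes. Lowest of all 6 samples were WT replicate 1 for 4 members and SOD1-G85R replicate 1 for 4 members, shares that were 29.2% and 27.5% over the panel. The ratio of highest to lowest over the 5 samples ran from 1.11 for Nfkbia and 1.24 for Relb to 3.19 for Nfkbie and 4.16 for Ikbke, the last against a value at the floor.

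The pathway upstream and downstream of these genes was described by lists of textbook members. Of 12 listed ligands of NF-kB activating receptors, 8 were measured and tested, and limma called 0. All 8 had a log2 fold change above 0, against 62.6% of the tested genes, with a median of 1.44, or 1.03 without SOD1-G85R replicate 2. Quantile normalization gave a median of 0.57. Groups did not overlap in the higher direction for 5 of the 8, against 17.0% of the tested genes, but 4 ligands (Lta, Il1b, Tnfsf13b and Tnf) were under 20 in every WT sample. These 4 could pass the filter only by exceeding 20 in all transgenic brains, which fixes both their direction and their lack of overlap. The counts and medians of the ligands include these 4, and Ltb was the other ligand without overlap. Tnf, the prototype ligand of the canonical branch, was at the floor in all 3 WT samples (8.05 to 13.4) and at 22.4, 139 and 29.8 in SOD1-G85R (limma, adjusted p = 0.234). Ltb, a lymphotoxin subunit of the non-canonical branch, was at 14.2, 30.2 and 23.2 in WT and at 32.0, 123 and 59.7 in SOD1-G85R (log2 fold change 1.48, limma, adjusted p = 0.257). Tnfsf13b, the gene of BAFF, was at 13.6 to 18.1 in WT and at 24.5, 109 and 63.9 in SOD1-G85R. Unlike these, Il1b and Lta were not highest in SOD1-G85R replicate 2, where they were at 36.6 and 31.9. Tnfsf10, the gene of TRAIL, was at 346 there and at 27.7 to 47.9 in the other 5 samples. Tnfsf10, Tnf, Ltb and Tnfsf13b were among the ligands named for their lead in SOD1-G85R replicate 2, which therefore follows from the choice.

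Of 26 listed receptors 15 were measured and 13 tested, with 0 called and a median log2 fold change of 0.46, or 0.15 without SOD1-G85R replicate 2. Quantile normalization gave a median of -0.05, where the median over all tested genes was -0.10. Groups did not overlap in 2 of the 13 higher and 1 lower, against 17.0% and 9.97% of the tested genes. Cd40, a receptor of the non-canonical branch, averaged 36.3 ± 12.1 normalized counts in the WT brains and 89.1 ± 39.9 in the transgenic brains (SD, n = 3 each), with no overlap (limma, adjusted p = 0.238). Tlr4, the lipopolysaccharide receptor, averaged 60.2 ± 20.7 and 139 ± 92.5 (limma, adjusted p = 0.363). Il1rap, the accessory chain of the IL-1 receptor, averaged 554 ± 111 in the WT brains and 381 ± 44.9 in the transgenic brains (log2 fold change -0.52, limma, adjusted p = 0.342). Cd14, the co-receptor of Tlr4, was at 94.0 in SOD1-G85R replicate 2 and at 36.4 to 52.6 elsewhere. In that sample Tlr2 was at 317, Tnfrsf1b at 213 and Tlr7 at 209. In the other 5 samples they were at 11.9 to 35.5, 33.0 to 49.7 and 42.2 to 59.9. Tlr2, Tnfrsf1b and Tlr7 were named because they were among the receptors highest in SOD1-G85R replicate 2 over the other 5 samples. The lead of that sample in them therefore follows from the choice and is not a separate result. Tlr2 was left out of the test by the filter.

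Of 35 listed adaptors and kinases between receptor and IKK, 18 were measured and tested, 0 were called, and the median log2 fold change was 0.29, or 0.12 without SOD1-G85R replicate 2, while quantile normalization gave -0.18. Map3k14, the gene of NIK, was at 24.5, 48.3 and 32.0 in WT and at 38.4, 62.1 and 79.5 in SOD1-G85R, where replicate 3 and not replicate 2 was highest (limma, adjusted p = 0.386). Traf3 and Birc2, whose products keep NIK low at rest, averaged 1065 ± 196 and 813 ± 81.3 in the WT brains. The transgenic brains averaged 856 ± 255 and 740 ± 143 (SD, n = 3 each), with overlap in both. Birc3, a target and a ubiquitin ligase of the pathway, was at 19.0, 27.2 and 25.6 in WT and at 33.0, 131 and 49.7 in SOD1-G85R (limma, adjusted p = 0.283). Irak3, a brake on Toll-like receptor signalling, averaged 20.1 ± 1.89 and 38.6 ± 16.9 (limma, adjusted p = 0.292). Mavs, an adaptor of RNA sensing, averaged 187 ± 29.4 and 171 ± 32.8. In SOD1-G85R replicate 2, Myd88, the adaptor of Toll-like and IL-1 receptors, was at 234, Tmem173 (STING) at 121 and Traf1 at 103. Elsewhere they were at 53.0 to 95.2, 32.8 to 45.9 and 13.9 to 31.3. Myd88, Tmem173 and Traf1 were named for their lead in SOD1-G85R replicate 2, which therefore follows from the choice. Of the 18 genes, 11 were highest in that sample, against 45.9% of the tested genes. At least 2-fold above the next were 4 of the 18, against 18.1%.

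Of 40 listed target genes 19 were measured and 17 tested, with 0 called. The list shares Tnf and Il1b with the ligands and Birc3 and Traf1 with the adaptors. The median log2 fold change was 1.27, or 0.75 without SOD1-G85R replicate 2 and 0.39 with quantile normalization, and 4 of the 17 were under 20 in every WT sample. Those 4 could pass the filter only by exceeding 20 in all transgenic brains, which fixes their direction, and the medians include them. In SOD1-G85R replicate 2, 13 of the 17 were highest of all samples and 12 were at least 2-fold above the next, against 45.9% and 18.1% of the tested genes. The chemokine gene Ccl2 was at 2257 normalized counts in that sample and at 28.8 to 59.7 elsewhere, and the complement gene C3 was at 1422 against 23.7 to 68.2. Ccl5, left out by the filter, was at 5298 against 7.85 to 13.4, and Cxcl10 was at 3511 against 8.87 to 24.5, both chemokines that interferons also induce. Ccl2, C3, Ccl5 and Cxcl10 were named for their lead in SOD1-G85R replicate 2, which therefore follows from the choice. Not all targets were highest in that sample. Cd44, an adhesion receptor, was at 29.2 to 31.2 in WT and at 53.3, 43.0 and 62.5 in SOD1-G85R (limma, adjusted p = 0.209). Fas, a death receptor that was highest in that sample, averaged 19.8 ± 2.64 and 51.2 ± 20.4 (limma, adjusted p = 0.200). Sod2, the mitochondrial superoxide dismutase, was lower in all 3 SOD1-G85R samples, at 2705, 2894 and 3153 against 3167 to 4268 in WT (log2 fold change -0.36, limma, adjusted p = 0.440). Ptgs2, the gene of cyclooxygenase COX-2, averaged 62.3 ± 15.7 and 47.8 ± 11.1 with overlap.

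**Figure D5:**
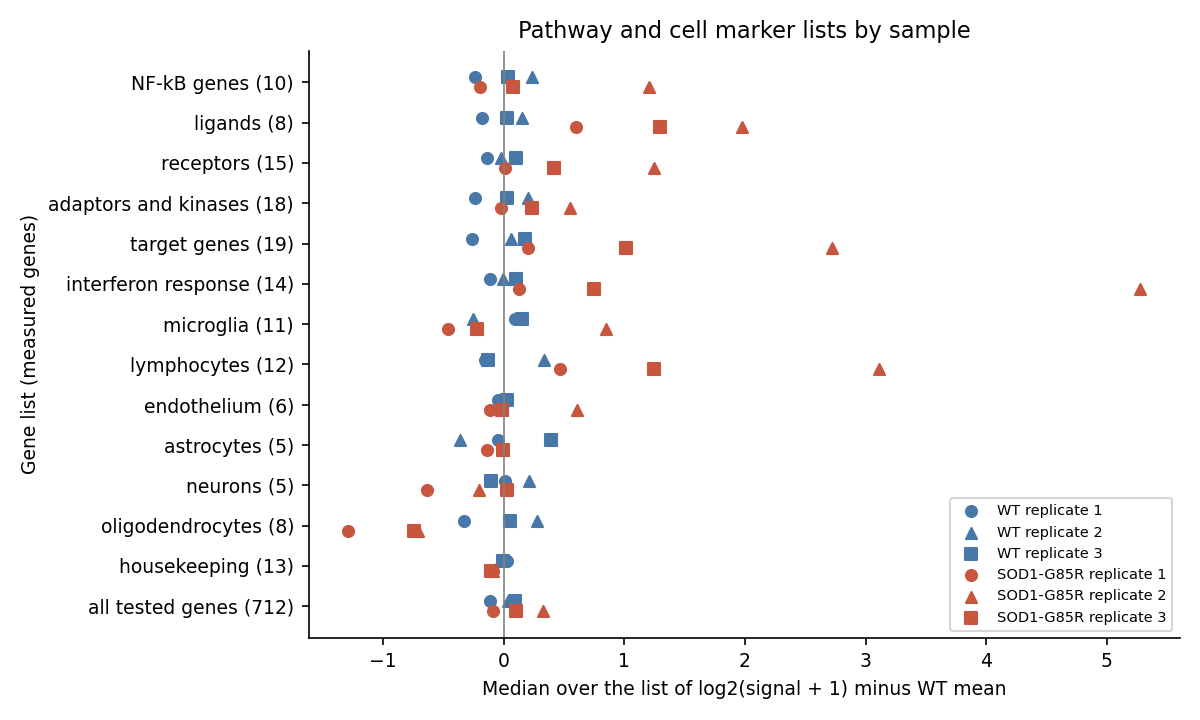
Median over each gene list of log2(signal + 1) minus the gene's WT mean, for each of the 6 samples, with the number of measured genes in brackets, WT in blue and SOD1-G85R in red. In SOD1-G85R replicate 2 (red triangles) the median is 1.21 for the NF-kB genes, 2.72 for their target genes and 5.28 for interferon response genes.

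Other gene groups moved with the NF-kB genes in SOD1-G85R replicate 2. The summed signal of 14 interferon response genes was 41700 there and 1315 to 2023 in the other 5 samples, and all 14 were highest in that sample. Over all tested genes that share was 45.9%, while the counts of highest markers given here run over measured genes, tested or not. Irf1, a regulator that responds to both NF-kB and interferon, was at 1010 against 41.9 to 79.1, and was named after its values were seen. The summed signal of 11 microglia markers was 7085 in that sample, 3004 and 3825 in SOD1-G85R replicates 1 and 3, and 3341 to 4939 in WT, with 0 markers at the floor and 8 of 11 highest in that sample. They did not move as 1 group against the mean of the other 5 samples. On the log2 scale Ptprc, a gene of all leukocytes, was higher there by 3.87 and Cd68, a phagocyte gene, by 2.68. Trem2 and Itgam were higher by 1.99 and 1.87. Of the homeostatic microglia genes, P2ry12 and Gpr34 stood at -1.20 and -0.80. The remaining markers were higher, with Tmem119 at 1.04, Cx3cr1 at 0.97, Olfml3 at 0.93, Csf1r at 0.67 and Sall1 at 0.26. The summed signal of 12 lymphocyte markers was 1148 there. It was 204 and 365 in SOD1-G85R replicates 1 and 3 and 125 to 177 in WT. In WT 4 to 10 of the 12 were at the floor. For 6 endothelial markers it was 3755 against 1994 to 2494, with 5 of 6 highest. For 5 astrocyte markers it was 15920, within the WT range of 13060 to 20760, with 1 of 5 highest. Against the mean of the other 5 samples, on the log2 scale, Aldh1l1 stood at 1.38, Sox9 at 0.32 and Gja1 at 0.06. Slc1a3 and S100b stood at -0.11 and -0.46. The part of these cell groups and of the interferon response in the NF-kB values was not tested, and in whole-brain RNA more cells of a type and more RNA per cell cannot be told apart. Samples with Y-linked signal were unevenly spread over the groups. With a term for Uty signal the members' log2 fold changes ran from -0.32 for Ikbkg to 1.60 for Ikbke, again with 0 called.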

How the data were processed

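NanoString signal for 770 genes in 6 samples was used as deposited by the authors, as 1 table. Neither the software nor the scaling genes nor any background rule is given in the sources used here. From the values, all signal above each sample's lowest value was a whole multiple of 1 step (within 0.1 count), and the lowest value, shared by 10 to 59 genes, was read as a floor. Implied counts are signal divided by the step, with exact Poisson 95% intervals for counting error only. No count model was fitted, since floor values are not counts.

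The scale was log2(signal + 1), on which low genes show too small a change. Genes with signal over 20 in at least 3 samples (712, with 58 left out) were compared by genotype with limma 3.58.1 in R 4.3.3 (lmFit, eBayes, two-sided, Benjamini-Hochberg over all tested genes, threshold 0.05). The members, gene lists, tests and other settings were chosen with earlier results of these data known. Named were all members and, of each pathway list, the 3 tested genes of smallest p in each direction and the 4 highest in SOD1-G85R replicate 2 over the other 5 samples. Cell marker lists were used as sums, medians and counts. The measured microglia and astrocyte markers were also given singly for SOD1-G85R replicate 2. The labels do not state that same-numbered replicates are paired, so the main fit has no replicate term. Correlations of same-numbered deviations were 0.231, 0.0881 and 0.0999, which cannot show whether the samples are paired. The kB consensus was searched in RefSeq promoter windows (GRCm38.p6), and figures were drawn with matplotlib 3.10.9.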

Additional observations from a re-analysis of the deposited data

How the results depend on the processing

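None of the 10 members passed an adjusted p of 0.05 in any of 169 values under 17 other settings, and 158 of these kept their sign. The sign turned for Rela when samples were centred on their medians (-0.076) and with quantile normalization (-0.21), and for Ikbkb with sample weights (0.0082) and a term for Uty signal (0.092). Leaving out SOD1-G85R replicate 2 turned Nfkb1 to -0.22, Rela to -0.18, Relb to -0.10 and Nfkbia to -0.024. Rela was -0.0074 without WT replicate 1, and Ikbkb was 0.14 without WT replicate 2 and 0.24 without SOD1-G85R replicate 1. Over the 6 fits that each left out 1 sample, log2 fold changes ran from -0.22 to 0.65 for Nfkb1, 0.29 to 1.47 for Nfkb2, -0.18 to 0.42 for Rela, -0.10 to 0.60 for Relb, -0.024 to 0.83 for Nfkbia, 0.38 to 1.57 for Nfkbie, -0.29 to -0.22 for Chuk, -0.27 to 0.24 for Ikbkb, -0.37 to -0.19 for Ikbkg and 0.68 to 1.91 for Ikbke, and the members' median from -0.14 to 0.62. The panel count of 0 called genes became 10 without SOD1-G85R replicate 2 and 52 with sample weights (a fit whose weights did not fully converge), with 0 members among them, and was 0 in the other fits that left out 1 sample. The 2 members whose groups did not overlap became 1 when centred on housekeeping genes and 0 with quantile normalization. They were 2 to 5 when 1 sample was left out, with 5 reached without SOD1-G85R replicate 1. Smaller groups separate more readily. Over the 712 tested genes, 140 did so higher and 115 lower without SOD1-G85R replicate 2, against 121 and 71 with all samples. The panel share without SOD1-G85R replicate 1 is not given here, so the 5 is not read as a result about the members. A filter at 50 left Ikbke out. With the replicate block, the replicate number as a term, the log2 fold changes were the same by construction (1.00 for Nfkb2) and 0 members were called. Standard errors were smaller in that fit, at 0.24 for Nfkbie, 0.17 for Rela and 0.25 for Nfkb1, against 0.68, 0.37 and 0.47. The lowest adjusted p of a member there was 0.1455 (limma, Nfkbie). The main limits are 3 samples a group with 1 that stands apart, the floor, which bounds Ikbke, and the unknown scaling. The cause of the changes under other settings was not tested.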
